A study of Drosophila melanogaster with 4 samples.

Results

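Closely packed clusters of serine 2-phosphorylated RNA polymerase II are described here for the arms 2L, 3L and 3R of the Drosophila genome in Kc167 cells. A cluster is a region that the authors listed as enriched in the chromatin immunoprecipitation. The clusters were chosen from the authors' combined set, which covers both ChIP libraries, by their width and spacing alone. Each is narrower than 10 kb and lies fewer than 1000 bp from the nearest cluster on at least 1 side. The rule found 906 such clusters among 2766 clusters under 10 kb on these arms and among 5566 clusters in the whole combined set. The other 1860 narrow clusters lay 1000 bp or more from any neighbour, and 331 clusters on these arms were 10 kb or wider.

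Kc167 is an established female cell line from late Drosophila embryos with the genotype se/e. All 4 samples came from this line, with no treatment named in the labels, and comprise 2 ChIP libraries and 2 input DNA libraries. The ChIP used a rabbit polyclonal antibody, ab5095, against the polymerase's C-terminal repeat phosphorylated at serine 2. Whether the replicates were grown separately is not stated in the labels, and their spread may therefore be only technical. Neither input was analysed here. The files used carry no read counts, which leaves the depth behind a cluster unknown.

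The largest subunit of RNA polymerase II carries a long tail of repeats of a short peptide. Kinases such as the P-TEFb and Cdk12 complexes phosphorylate serine 2 of that repeat as the polymerase leaves the promoter and elongates, and the mark is typically strongest over gene bodies and towards their 3′ ends. Neighbouring clusters can therefore belong to neighbouring genes, which often lie close together in the compact fly genome, or to stretches of the same gene. Which of these applied was not tested, since the gene table at hand describes another release of the genome and the clusters could not be placed on genes or on sequence. Positions refer to FlyBase release 5, which the file headers name, and are counted from 1.

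Short breaks between clusters were common. Of 3094 breaks between neighbouring clusters on the 3 arms, 596 were shorter than 1000 bp, which was 19.3%, while the median over all breaks was 5760 bp. The median of the short breaks was 385 bp. They crowded towards small sizes, with 212 under 250 bp, 164 from 250 to under 500 bp, 108 from 500 to under 750 bp and 112 from 750 bp up to the limit. There were 91 under 100 bp, and at 2 of them the next cluster began at the base after the last one ended. All but 13 of the 596 touched at least 1 of the closely packed clusters, and those 13 lay between clusters of 10 kb or wider.

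The narrowest breaks show how fine these divisions are. On 2L a cluster from 2967186 to 2971276 with a score of 2.00 was followed, with 0 bp between, by a cluster of 17996 bp that ran to 2989272 with a score of 1.15. Both replicates also listed 2 clusters there. Replicate 1 left 156 bp between them, across the junction, and replicate 2 left 357 bp, all to the left of it, so that its right-hand cluster overlapped both combined clusters. On 3L the other abutting pair ran from 23621745 to 23623557 and from 23623558 to 23624982, with scores of 0.32 and 0.34. Replicate 1 listed neither of them. Replicate 2 listed 2 clusters, from 23621886 to 23623588 and from 23623713 to 23625245, with its break to the right of the junction, so that its left-hand cluster overlapped both. A 1 bp break on 2L separated clusters at 11444837 to 11446822 and 11446824 to 11448855, which scored 0.36 and 0.49, and here both replicates kept a break, of 38 and 46 bp. Wherever a replicate listed clusters at these 3 breaks it listed 2 of them, at slightly different positions.

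Clusters under 1000 bp apart were linked into chains, with clusters of 10 kb or wider allowed as links. The 906 closely packed clusters fell into 444 chains. Most were pairs: 336 chains (75.7%) had 2 clusters, 80 had 3, 22 had 4 and 6 had 5, the largest number found. A wide cluster was part of 120 chains. The chains spanned 2608 to 54803 bp with a median of 10193.5 bp, and 226 of them spanned 10 kb or more. In 106 of those 226 no single cluster reached 10 kb, so a span of that size was made up of narrower pieces. Breaks took up little of a chain, with a median of 4.69% of its span and a maximum of 26.5%. The rule itself keeps this share low, since each break was under 1000 bp and no cluster was narrower than 1001 bp.

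Chains of several clusters were also found in each library on its own. The same rule gave 849 closely packed clusters in replicate 1 and 782 in replicate 2, a mean of 815.5 ± 47.4 (SD, n = 2), against 906 in the combined set. They made up 31.5% and 29.6% of the clusters under 10 kb in the replicates and 32.8% in the combined set (95% exact interval 31.0 to 34.5). There were 422 chains in replicate 1 and 385 in replicate 2, and pairs were 80.1% and 77.7% of them. The longest chain had 6 clusters in replicate 1 and 5 in replicate 2. The median short break was 441 and 423 bp, against 385 bp in the combined set. The combined value lay outside the range of the replicates for each of these counts, shares and medians, except for the longest chain, which had 5 clusters.

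**Figure D1:**
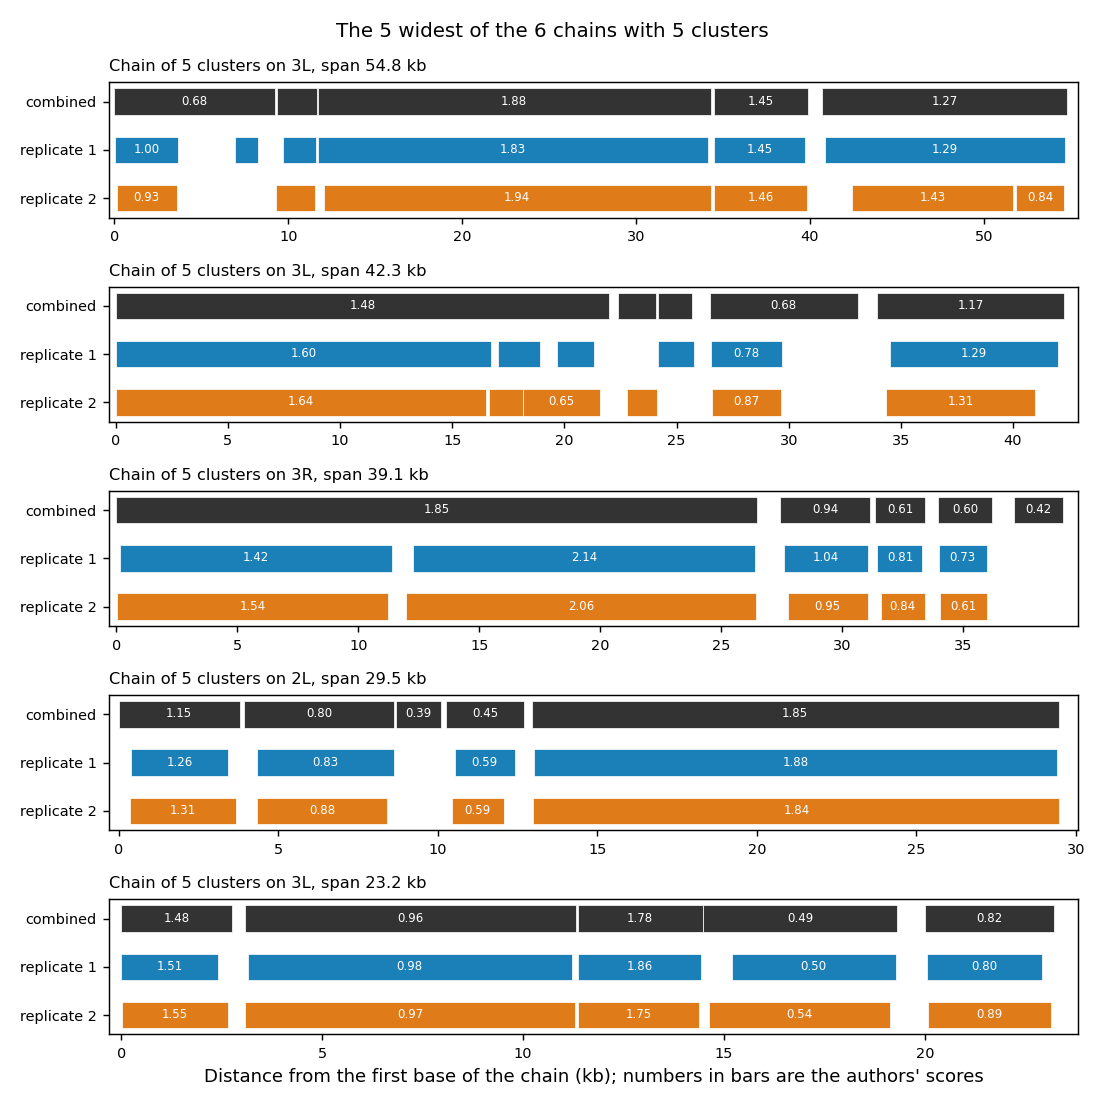
Maps of the 5 widest of the 6 combined chains with 5 clusters, with the clusters of the combined set (black), replicate 1 (blue) and replicate 2 (orange) drawn against the distance in kb from the first base of the chain. Numbers inside bars are the authors' scores, omitted from short bars. The bottom chain, of 23206 bp, had 5 pieces in all 3 sets, whereas in the others a replicate split or lacked at least 1 cluster of the combined set.

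Of the 6 chains with 5 clusters, the 5 widest are described. The narrowest of these 5 ran on 3L from 3034209 to 3057414, a span of 23206 bp made up of 5 closely packed clusters. Their scores in the combined set, in order along the arm, were 1.48, 0.96, 1.78, 0.49 and 0.82. Replicate 1 gave 1.51, 0.98, 1.86, 0.50 and 0.80 for the 5 matching pieces, and replicate 2 gave 1.55, 0.97, 1.75, 0.54 and 0.89. The order of the 5 scores from highest to lowest was thus identical in the 3 sets. The 4 breaks measured 314, 48, 12 and 712 bp in the combined set, and each of them was present in both replicates. The break of 12 bp was 772 bp in replicate 1 and 247 bp in replicate 2.

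The longest of the 5, also the longest chain of all, ran on 3L from 19872737 to 19927539, a span of 54803 bp. It held 3 closely packed clusters and 2 wider ones, of 22602 and 14105 bp, and the highest score was 1.88 for the wider of these. All 4 of its breaks recurred in both replicates, including one of 5 bp. Its first cluster, 9235 bp wide with a score of 0.68, was divided further in replicate 1, into pieces of 3581 and 1313 bp. Replicate 2 listed a single piece of 3433 bp there, but divided the last cluster into pieces of 9268 and 2737 bp.

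The other 3 were less alike between sets. The chain on 3L from 13985663 to 14027952 began with a cluster of 21975 bp and a score of 1.48, which each replicate listed in 3 pieces. Of its next 2 clusters, 1683 and 1479 bp wide with scores of 0.42 and 0.38, replicate 1 had only the second and replicate 2 only the first. The chain on 3R from 23754300 to 23793438 stepped down along the arm, with scores of 1.85, 0.94, 0.61, 0.60 and 0.42. Both replicates kept the middle 3 clusters as single pieces, split the first, of 26489 bp, into 2, and lacked the last, of 2032 bp. On 2L, the chain from 6943256 to 6972709 had scores of 1.15, 0.80, 0.39, 0.45 and 1.85, and both replicates listed 4 pieces without the third cluster, the narrowest at 1397 bp. In these 3 chains the clusters that a replicate lacked all scored 0.42 or less in the combined set.

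The 3 widest chains outside this list had fewer and wider links. A chain of 3 clusters on 3R from 19817545 to 19865118 spanned 47574 bp, of which breaks took up only 0.33%. Its 2 breaks were 5 and 154 bp long, and its only closely packed cluster, 4062 bp wide with a score of 0.84, lay at the right end. On 3L the chain from 11515647 to 11552458 spanned 36812 bp with 3 clusters, again with the narrow one, of 3867 bp and a score of 0.44, at the right end. A chain of 4 clusters on 3R from 20043499 to 20079455 spanned 35957 bp with scores of 1.19, 0.70, 1.43 and 0.72. It had 7 pieces in each replicate, and its 3 combined breaks all recurred in both.

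The 596 short breaks were then looked up in each library. Those between clusters of 10 kb or wider were included, whether or not they lay in a chain. A break of the combined set was said to recur in a replicate where different replicate clusters overlapped the clusters on its 2 sides. It was joined where a single replicate cluster overlapped both sides. Otherwise at least 1 of the flanking clusters had no counterpart. The combined set was derived from the same libraries, so the comparison describes how the lists agree and tests no condition. With 2 replicates an exact sign-flip test cannot give a two-sided p below 0.5, and none was run.

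Breaks recurred or lost a side, but were hardly ever joined. In replicate 1, 403 of the 596 short breaks recurred (67.6%, 95% exact interval 63.7 to 71.4), 4 were joined and 189 lacked a flanking cluster. In replicate 2, 395 recurred (66.3%, 62.3 to 70.1), 9 were joined and 192 lacked a flanking cluster. The mean share that recurred was 66.9% ± 0.95 (SD, n = 2), and the mean share joined was 1.09% ± 0.59. Such intervals treat breaks as independent, which breaks of the same chain are not. Longer breaks of the same arms recurred more often, at 75.9% ± 2.15, and none of the 2498 was joined in either replicate, which allows a share of up to 0.148% in each by the exact interval.

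Both replicates gave a break the same outcome in 515 of 596 cases (86.4%). Of the 596, 361 recurred in both (60.6%, 95% exact interval 56.5 to 64.5), against 68.6% of breaks of any length on these arms. In 153 (25.7%) a flanking cluster was missing in both. Only 1 break was joined in both. Where all flanking clusters were present in both replicates, 361 of 368 breaks recurred in both (98.1%). Breaks that did not recur thus mostly lacked a flanking cluster in a replicate.

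Most joined breaks lay close to a break of the same replicate. Of the 4 breaks joined in replicate 1, 3 had a break of that replicate's own fewer than 500 bp away, as did 8 of the 9 in replicate 2. Breaks of any length were counted, so a shifted break is not told apart from a missing flanking cluster. For a 2 bp break on 3L, inside 2426390 to 2429932, replicate 1 listed only 1 piece, over 55.8% of the span. The only chain with its break joined in both replicates shows a shift. On 3R the combined set separated a cluster of 4121 bp, from 7773688 to 7777808, from one of 16786 bp by a single base. In replicate 1 the cluster ended at 7777811 and the next began at 7778258, which puts the break to the right of that base. In replicate 2 they ended at 7777500 and began at 7777797, to its left. A criterion chosen after these cases were seen required a joining cluster to cover at least 100 bp on each side. The joined share then fell to 0.25% ± 0.12. Breaks that failed the criterion were counted as recurring by construction, without a check for a second cluster. That put the recurring share at 67.8% ± 0.47, which may include breaks with a missing flanking cluster.

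**Figure D2:**
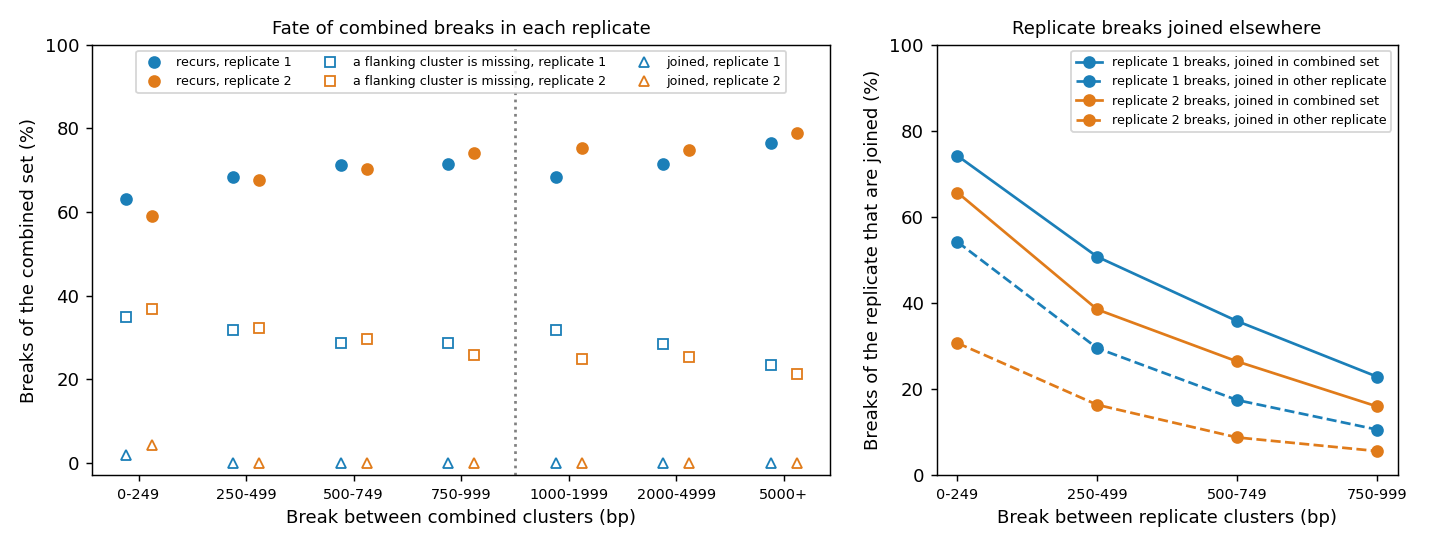
Left, the percentage of combined-set breaks that recurred (filled circles), lacked a flanking cluster (squares) or were joined (triangles) in replicate 1 (blue) and replicate 2 (orange), by the length of the break in bp; the dotted line marks 1000 bp. Right, the percentage of short breaks of each replicate that were joined in the combined set (solid) or in the other replicate (dashed), by length. Joining was confined to the shortest class on the left (1.89% and 4.25%) and fell with length in all 4 series on the right.

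The recurring share rose with the length of the break. Under 250 bp, 61.1% ± 3.00 of the combined breaks recurred (SD, n = 2), and from 750 bp up to the limit of 1000 bp, 72.8% ± 1.89. The next class, from 1000 to under 2000 bp, stood at 71.8% ± 4.90, a difference smaller than the spread between the replicates. From 5000 bp upwards the share was 77.6% ± 1.61. The share that recurred in both replicates rose from 53.8% under 250 bp (95% exact interval 46.8 to 60.6) to 67.0% from 750 bp up to the limit (57.4 to 75.6).

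Breaks that recurred were wider in the libraries than in the combined set. The median over the recurring breaks was 804 bp in replicate 1 against 393 bp for the same breaks in the combined set, and 727 against 420 bp in replicate 2. The replicate break was the wider in 391 of 403 cases in replicate 1 and in 351 of 395 in replicate 2. As a result 275 of the recurring breaks were still under 1000 bp in replicate 1 (68.2%) and 290 in replicate 2 (73.4%). The rest were breaks in both sets but fell outside the rule's distance in the library. The rule kept only short combined breaks, which by itself selects for a smaller value in the combined set, and how much of the gap between the sets comes from this was not tested.

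The reverse lookup gave another picture. Of 529 short breaks in replicate 1, 275 recurred in the combined set and 253 were joined there (47.8%, 95% exact interval 43.5 to 52.2). Of 496 in replicate 2, 292 recurred and 200 were joined (40.3%, 36.0 to 44.8). Loss of a flanking cluster was rare, with 1 and 4 cases. The combined set thus bridged many breaks that a library had, while the libraries bridged almost none of the breaks that the combined set had. Of the breaks bridged, 140 in replicate 1 (55.3%) and 101 in replicate 2 (50.5%) lay inside a combined cluster of 10 kb or wider.

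Between the replicates, short breaks were shared less fully than longer ones. Replicate 2 had 334 of the 529 short breaks of replicate 1 (63.1%) and joined 157 (29.7%). Replicate 1 had 361 of the 496 of replicate 2 (72.8%) and joined 86 (17.3%). The mean was 68.0% ± 6.82 recurring and 23.5% ± 8.73 joined (SD over the 2 directions), against 90.4% ± 2.92 and 0.48% ± 0.32 for longer breaks. The difference in recurrence between short and longer breaks was larger than the spread between the directions. Joining depended on length: for replicate 1 breaks looked up in replicate 2 it was 54.2% under 250 bp and 10.7% from 750 bp up to the limit, and in the other direction 30.7% and 5.66%. Of the joined breaks, 23 of 157 and 20 of 86 had a break of the other replicate fewer than 500 bp away, so most were not small shifts.

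Closely packed clusters scored lower than the others. The median score in the combined set was 0.78, with an interquartile range of 0.40 to 1.28, against 0.95 and 0.46 to 1.58 for the 1860 clusters under 10 kb without a close neighbour. The score is the authors' own, and the sources used here do not give its scale. Scores of different sets are set side by side only to show how alike they are. The closely packed clusters were a little wider, with a median of 2815 against 2573.5 bp. The same rule applied to each library gave medians of 0.94 against 1.08 in replicate 1 and 0.94 against 1.07 in replicate 2. The difference in the libraries was -0.135 ± 0.00701 (SD, n = 2), while it was -0.166 in the combined set. Score and spacing come from the same data, so this is a description without a test.

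**Figure D3:**
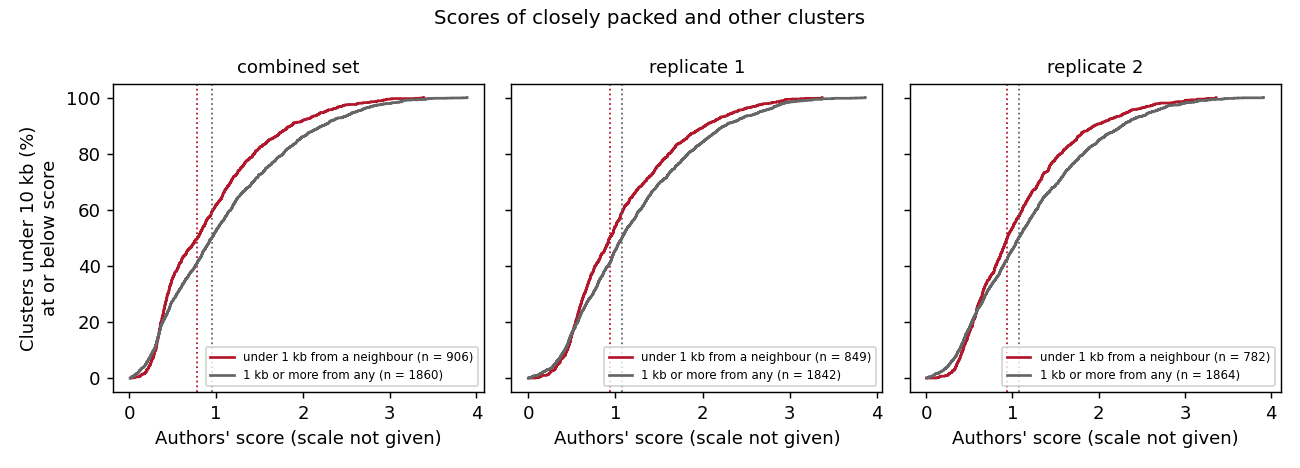
Cumulative percentage of clusters under 10 kb at or below each score (x axis, the authors' score with no unit given) in the combined set and in each replicate, for clusters under 1 kb from a neighbour (red) and the others (grey). Dotted lines mark the medians, which are lower for the closely packed clusters in all 3 panels.

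The clusters under 10 kb were also divided by score into 4 classes of equal size. The share that was closely packed was 38.2% in the lowest class, 35.3% in the next, 33.3% in the third and 24.3% in the highest, falling at each step. By width the share was lowest, at 27.4%, in the middle of 5 width classes, which starts at 2000 bp. It was 37.5% in the narrowest class and 36.8% in the widest, from 5000 bp upwards.

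The highest-scoring of the closely packed clusters had nearly the same scores in the 3 sets. The highest score, 3.40, belonged to 3R from 17198061 to 17204163, which scored 3.36 in replicate 1 and 3.44 in replicate 2. The next, at 17121147 to 17126937 of the same arm, scored 3.35 in the combined set, 3.37 in replicate 1 and 3.36 in replicate 2. It had a neighbour 62 bp to its right. The third, on 3R from 8289879 to 8294814, scored 3.30, with 3.26 and 3.36 in the replicates. Their widths ranged from 4936 to 6103 bp, and neither library divided any of them.

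Neighbours across a short break often differed widely in score. In the combined set the median difference in score across the short breaks ran from 0.52 to 0.70 over the 4 length classes. It was 0.68 from 1000 to under 2000 bp, 0.66 from 2000 to under 5000 bp and 0.72 from 5000 bp upwards. Over all short breaks the median difference was lower than over all longer ones, by -0.0935 as short minus longer. The largest step was on 2L, where a wide cluster from 2744548 to 2761586 with a score of 3.32 was flanked on both sides. On its right, 333 bp away, a cluster of 2189 bp scored 0.39, and on its left, 501 bp away, one of 5256 bp scored 0.76. These were the largest and the third largest of all the steps, at 2.93 and 2.56. The second, of 2.57, lay on 3L between a cluster of 2010 bp at 8665014 to 8667023, with a score of 0.39, and its neighbour of 6471 bp, with 2.96. All 3 of these breaks recurred in both replicates. The lower-scoring cluster was also the narrower in 455 of the 596 pairs (76.3%), beside 71.3% of pairs farther apart.

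Clusters inside chains scored lower than those at the ends. In chains of 3 or more, the 142 clusters with a neighbour on both sides had a median score of 0.57, against 0.88 for the 216 at the ends. Of the inner clusters 64.1% overlapped a cluster of both replicates, compared with 83.8% of those at the ends. Their median widths were 2750.5 and 3330 bp, with 15 and 26 wide clusters among them. Among the closely packed clusters, the 127 with close neighbours on both sides had a median score of 0.48 and the 779 with a neighbour on 1 side 0.83.

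Of the 906 closely packed clusters, 687 overlapped a cluster of both replicates (75.8%, 95% exact interval 72.9 to 78.6). The share was 79.9% for all clusters under 10 kb on these arms and 80.8% for the combined set as a whole. A further 81 overlapped a cluster of only 1 replicate, and 138 overlapped neither (15.2%, 13.0 to 17.7), against 10.8% of the clusters without a close neighbour. The 138 had a median score of 0.34 and a median width of 1304 bp. The narrowest clusters on these arms were 1001 bp in the combined set and 1303 bp in each replicate. The 687 in both replicates had a median score of 0.99 and a median width of 3598 bp.

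The shortfall lay mainly among the lowest-scoring clusters. In the lowest of the 4 score classes, 81 of 264 closely packed clusters overlapped both replicates (30.7%), compared with 45.6% of the other clusters in that class. In the second class the shares were 88.1% and 89.0%. In the 2 upper classes closely packed clusters were found in both replicates at 97.8% and 98.8%, above the 94.8% and 93.9% of the others. Where 1 side of a short break was missing in a replicate, it was the lower-scoring side in 143 of 157 cases in replicate 1 and in 148 of 163 in replicate 2. The corresponding shares were 91.1% and 90.8%, against 85.9% and 82.9% for longer breaks.

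**Figure D4:**
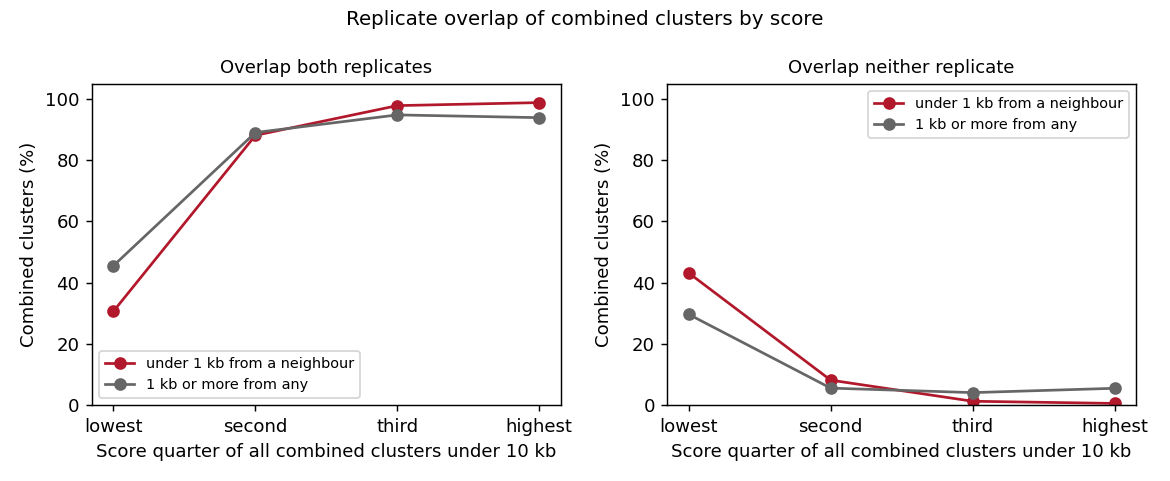
Percentage of combined clusters under 10 kb that overlapped clusters of both replicates (left) or of neither (right), by class of the combined score (4 classes of equal size), for clusters under 1 kb from a neighbour (red) and the others (grey). The curves are apart in the lowest class, at 30.7% against 45.6% on the left, and close in the second.

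Few closely packed clusters, and few of the others, were split further by a library. In replicate 1, 685 of the 906 met a single cluster, 43 met 2 and 178 met none, and in replicate 2 the numbers were 682, 45 and 179. The shares split were 4.75% and 4.97%, against 4.52% and 3.12% of the 1860 other clusters. The shares that met none were 19.6% and 19.8%, against 15.6% and 13.3%. Scores could be compared for the 613 closely packed clusters that matched a single cluster in each library which in turn met no other. Their median was 1.01 in replicate 1 and 1.06 in replicate 2. The median absolute difference between the libraries was 0.0766, against 0.0806 for the other clusters, and the SD of the difference was 0.129 against 0.143.

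Per chain, these outcomes added up as follows. In 263 of the 444 chains every break recurred in both replicates, and in 1 every break was joined in both. In 59 chains each replicate had a single piece. Few of these 59 were merged, since only 12 of the 596 short breaks were joined in at least 1 replicate. In the rest a flanking cluster was missing. A further 9 chains had no counterpart in either library. Both replicates had exactly as many pieces as the combined set in 206 chains. An equal number does not mean the same pieces. The chain on 3R from 23754300 to 23793438 had 5 in each set, though both replicates split its first cluster and lacked its last. Every break recurred in both replicates in 215 of the 336 pairs, in 40 of the 80 chains of 3, in 6 of the 22 chains of 4 and in 2 of the 6 chains of 5. Longer chains have more breaks that must all recur.

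The arms were then compared. In the combined set there were 276 closely packed clusters on 2L, 337 on 3L and 293 on 3R, or 12.0, 13.7 and 10.5 per Mb of arm. In replicate 1 the densities were 10.1, 12.2 and 11.3 per Mb, and in replicate 2 they were 9.78, 11.2 and 10.1. The arm 3L was highest in all 3 sets, but 2L exceeded 3R only in the combined set. The difference between 3L and 3R was 0.96 ± 0.09 per Mb in the libraries (SD, n = 2) and 3.23 in the combined set. The size of this difference depended on the settings: it was 2.00 in the libraries with a distance limit of 2000 bp, and 0.44 in the libraries and 0.73 in the combined set when only the better-scoring 50% of clusters were kept. All clusters were also densest on 3L, at 43.1 per Mb in the combined set against 40.2 on 2L and 39.8 on 3R.

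**Figure D5:**
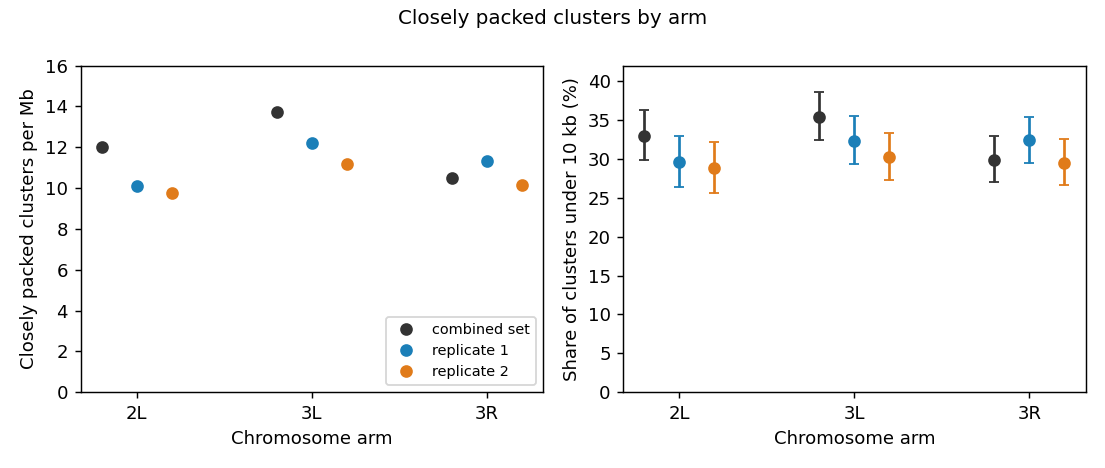
Closely packed clusters per Mb (left) and as a percentage of the clusters under 10 kb (right) on each arm, in the combined set (black), replicate 1 (blue) and replicate 2 (orange). Bars on the right are 95% exact intervals. The combined set is above both replicates on 2L and 3L, and lies between them on 3R at 10.5 per Mb.

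As a share of the clusters under 10 kb, the closely packed made up 33.0% on 2L, 35.4% on 3L and 29.9% on 3R in the combined set. The excess of 3L over 3R was 5.51 percentage points there but only 0.33 ± 0.48 in the libraries, which is within their spread. The share of short breaks that recurred in both replicates was 57.7% on 2L, 59.9% on 3L and 64.1% on 3R, with overlapping intervals (50.2 to 65.0, 53.1 to 66.4 and 56.8 to 70.8). For breaks of any length the same order held, at 66.2%, 68.8% and 70.6%.

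Along the arms, closely packed clusters were widely spread. In 74 full windows of 1 Mb, the median was 11.5 per window and the maximum was 27, on 3L from 17 to 18 Mb, where replicates 1 and 2 had 21 and 19. Only 1 window, on 2L from 17 to 18 Mb, had none in any of the 3 sets, although it held 18 clusters in the combined set. Across the windows the number of closely packed clusters followed that of all clusters with a Pearson r of 0.69. The closely packed clusters are themselves among all clusters, which by itself favours a positive r. The windows of the replicates correlated at 0.77 for closely packed clusters and at 0.98 for all clusters. These correlations describe windows of the same libraries, which are not independent samples.

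The regions that the authors listed as depleted on these arms were all wider than the short breaks. None of the 596 short breaks held any of the 48 depleted regions of these arms, and none of the 529 and 496 short breaks of the replicates did. The narrowest depleted region on these arms was 1376 bp in the combined set, 1504 bp in replicate 1 and 1629 bp in replicate 2. None could thus have lain wholly within a break under 1000 bp in any set. These counts could have differed only if a depleted region overlapped a cluster, so they say nothing further about the breaks. Of the 48, 4 lay fewer than 1000 bp from a cluster.

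The limits of the rule cut through a continuous range. Just inside the distance limit, a pair of clusters on 3L from 18829643 to 18837353 and from 18838353 to 18840417 were 1 bp under it, with scores of 1.93 and 0.57. Just outside it, a pair on 2L from 22546898 to 22550635 and from 22551643 to 22554954 lay 1007 bp apart, with scores of 0.85 and 0.51. All 4 met a single cluster in each replicate. The widest closely packed clusters measured 9975 bp on 3L, with a score of 0.33, and 9748 bp on 3R, with a score of 1.13. The narrowest clusters with a close neighbour that the width limit left out measured 10050 and 10122 bp, both on 2L, with scores of 0.98 and 2.28.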

How the data were processed

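Chromatin of Kc167 cells was profiled by ChIP-seq in 2 ChIP libraries, with 2 input libraries that were not analysed here. The submitters' processing notes name Bowtie 0.12.7. The sources used here do not give the region caller, its threshold, the use made of the input or how the replicates were merged into the combined set. The authors deposited 3 sets of regions with a score each, on FlyBase release 5 per the file headers. The scale of the score and the read depth are unknown.

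Enriched regions on 2L, 3L and 3R were sorted, and the distance between neighbours was the number of bases between them. Overlap meant at least 1 bp. Intervals are 95% exact (Clopper-Pearson) intervals and cover counting error only. The region functions were tested on simulated data, in which 100% of 600 planted breaks were classed correctly in each of 3 simulations. There a cluster crossed a break only where it covered most of both sides, so slight crossings were not tested. The members and lists were chosen with earlier results of these data known. Named regions follow a rule: the 5 chains with the most clusters (ties by span), then 3 each of the widest other chains, those with every break recurring or joined in both replicates, the highest scores, the largest score steps and the narrowest breaks, and the 2 clusters nearest to each limit on each side. Alternatives changed the distance limit, the width limit, the scores kept, the criteria for recurrence and the replicates used. Tables were handled in Python 3.11.15 with pandas 2.3.3 and numpy 2.4.6, intervals came from scipy 1.17.1, and figures from matplotlib 3.10.9.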

Additional observations from a re-analysis of the deposited data

How the results depend on the processing

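No paired analysis was possible because the input libraries have no file among those analysed here, and every comparison sets the 2 ChIP libraries beside each other. No alternative turned the sign of a recomputed difference, while shares and counts cannot change sign. The excess of 3L over 3R in the closely packed share was not recomputed. It was -0.0146 percentage points in replicate 1 and 0.669 in replicate 2, so its sign differed between the libraries. Of 85 recomputed values, 43 moved beyond their tolerance. It was 1.5 times for a count and the spread between replicates or the 95% interval for other values. Values without 1 of the 2 replicates could not move under this tolerance. The score divided by the logarithm of the width was compared by sign alone. With 2 replicates and unknown depth, the spread is known only roughly. With distance limits of 500 and 2000 bp, the closely packed share of clusters under 10 kb was 21.0% and 46.6% in the combined set and 18.0% and 43.9% in the replicates, with 580 and 1290 clusters in 303 and 582 chains. The share of combined breaks recurring was then 64.1% and 68.6%, and 1.73% were joined at 500 bp. Between the replicates 58.2% recurred and 33.8% were joined at 500 bp. The score difference from other clusters was -0.189 and -0.146 in the combined set and -0.0929 and -0.143 in the replicates. The excess of 3L over 3R was 2.96 and 3.51 per Mb in the combined set and 1.59 and 2.00 in the replicates. The difference of neighbouring scores between short and longer breaks, -0.0935 at the reported limit, was -0.0634 and -0.0538.

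Keeping the better-scoring 50% of each set left 160 closely packed clusters in 97 chains, with fewer clusters to lie close by construction. Their share was 12.8% in the combined set and 12.1% in the replicates. Combined breaks then recurred at 79.3% and were joined at 1.80%. The score differences were -0.12 and -0.0869, the excess of 3L over 3R was 0.73 and 0.44 per Mb in the combined set and the replicates, and the difference of neighbouring scores was -0.0619. With a width limit of 5000 bp the share in the replicates was 29.0%, the score differences were -0.235 and -0.178, and the excess of 3L over 3R in the combined set was 2.54. Without a width limit the score differences were -0.133 and -0.110 and the excess was 3.37. With neighbours under 10 kb only, the shares were 28.9% and 27.3%. Counting only breaks with all flanking clusters in both replicates gave 98.9% recurring. Requiring at least 50% of a break to be uncovered gave 58.0% recurring between the replicates. The criterion of 100 bp for joining, added after the data were seen, gave 0.252% joined in the combined breaks.

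Leaving out replicate 1 and replicate 2, in that order, gave 29.6% and 31.5% for the closely packed share, 385 and 422 chains, 66.3% and 67.6% of combined breaks recurring, 1.51% and 0.67% joined, score differences of -0.130 and -0.140, and an excess of 3L over 3R of 1.02 and 0.90 per Mb. The breaks shared between the replicates need both libraries and have no such value.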
